A study of Mus musculus with 12 samples.

Results

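The cytosolic ribosomal proteins were followed through RNA-seq of mouse bone marrow cells as the 87 protein-coding genes of 55487 rows whose symbol begins with Rpl or Rps and a digit, or is Rplp0, Rplp1, Rplp2 or Rpsa. Ribosomal protein S6 kinases and symbols containing -ps, the mark of a pseudogene, were left out by the same rule. By role, 43 of the genes encode core proteins of the large subunit, 31 of the small subunit and 3 the stalk, and 10 carry a family name but are paralogs of a core gene or are not ribosomal proteins. They lie on 19 chromosomes, with 14 on chromosome 7. The study compared 4 groups of 3 libraries each. MA9 mock and MA9 sPrdm16 were bone marrow cells that carried MLL::AF9 on a retrovirus and then received, respectively, an empty (mock) retrovirus or one with the Prdm16 form labelled sPrdm16. WT mock and WT sPrdm16 were normal bone marrow cells given the same second viruses without MLL::AF9. MLL::AF9 is a fusion that drives acute myeloid leukaemia, and Prdm16 is a zinc-finger regulator of transcription. The sources used here do not give the animals' age or strain, how many were pooled or whether the MA9 cells were 1 clone, and the culture medium, which held mouse IL-3, is given for MA9 cells alone.

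Each ribosomal protein is a part of the machine that reads mRNA and joins amino acids. The small subunit decodes the message, the large subunit forms the peptide bond, and the flexible stalk on the large subunit recruits the translation factors that bind GTP. Most ribosomal protein mRNAs begin with a run of pyrimidines, the terminal oligopyrimidine (TOP) motif, through which Larp1 and mTORC1 set their translation, and many of their genes hold a small nucleolar RNA (snoRNA) that guides chemical marking of ribosomal RNA. Loss of 1 gene copy of some family members causes Diamond-Blackfan anaemia in humans, and growing blood progenitors are known for high ribosome production.

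The sequence around the start of transcription showed what the family shares beyond its name. RefSeq start windows (GRCm38.p6) were found for 67 of the 87 genes and for 57 of the 77 genes outside the paralog list. Of these 57, 34 (59.6%) had, within 10 bases of an annotated start, a C followed by at least 4 further pyrimidines, against 35.3% of 16802 protein-coding genes of the tables. The starts of 4 genes with such a run, in capitals, are shown as 30 bases of the coding strand of which the last 15 begin at the annotated start, and Rpl5 and Rpl23 are shown because no such run was found in their windows.
Rpl15 (chr14:18270972-18271001, minus strand): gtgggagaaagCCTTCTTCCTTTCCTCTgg
Rplp2 (chr7:141447636-141447665, plus strand): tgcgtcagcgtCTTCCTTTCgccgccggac
Rps15a (chr7:118116133-118116162, minus strand): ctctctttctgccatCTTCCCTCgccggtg
Rpl13a (chr7:45128731-45128760, minus strand): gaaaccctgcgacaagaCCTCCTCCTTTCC
Rpl5 (chr5:107900513-107900542, plus strand): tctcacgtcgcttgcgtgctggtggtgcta
Rpl23 (chr11:97782425-97782454, minus strand): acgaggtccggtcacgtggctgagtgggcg
The letters CTTTCC, which lie inside the runs of Rpl15 and Rpl13a, occurred on the coding strand between 50 bases before and 50 after the start in 31.6% of the 57 genes and in 5.11% of all protein-coding genes. The letters CCGGAA, the core of sites for ETS factors, occurred on either strand in the 300 bases from 250 before to 50 after the start in 56.1% against 21.3%, and both motifs overlapped as CTTTCCGG in 3 of the 57. The letters TATAAA were found in the 50 bases before the start in 0 of the 57 and in 3.76% of all genes. A match is a description of these letters and shows no binding.

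Library totals were 17217150 to 37390925 counts. Nuclear protein-coding counts were lowest in MA9 mock (7400905, 7406100 and 3844575), where structural RNAs, including ribosomal RNA, took 64.6% ± 8.31 of all counts against 18.7% ± 0.120 in MA9 sPrdm16 and 2.25% ± 0.308 and 1.72% ± 0.313 in the WT groups (SD, n = 3 each). Values of MA9 mock, above all replicate 3, therefore rest on fewer counts. All 4 general blood cell markers were above 1 CPM in every group, and 0 of 4 lymphocyte markers were above 1 CPM in any group. The 4 neutrophil markers together stood at 15899 to 20066 CPM in WT mock and at 2783 to 3304 CPM in WT sPrdm16, 4 mast cell and basophil markers at 3475 to 3873 and 379 to 412 CPM, and 4 progenitor markers at 237 to 319 and 1168 to 1268 CPM. The part of these shifts in the WT results was not tested. In MA9 the neutrophil sums were 470.4 to 626 CPM in mock and 1054 to 1144 CPM with sPrdm16. All 4 of these markers were above 1 CPM in MA9 mock but only 2 in MA9 sPrdm16, so the sum rose while some of its markers fell. Progenitor markers summed to 992 to 1199 and 794 to 816 CPM, monocyte markers to 655 to 825 and 929 to 952 CPM, and stroma and endothelium markers to 17.1 to 20.03 and 78.9 to 83.2 CPM, in MA9 mock and MA9 sPrdm16 respectively. Among the progenitor markers Flt3 was at 0 in every MA9 mock library and Cd34 at 0 in every MA9 sPrdm16 library. The ranges of these 4 lists did not overlap between the MA9 groups, and their part in the MA9 results was not tested. In bulk samples fewer cells of a type and less RNA per cell cannot be told apart.

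As a whole, the family took overlapping shares of the nuclear protein-coding counts in both MA9 groups and a larger share in WT sPrdm16 than in WT mock. The share was 4.66, 5.14 and 5.62% in the MA9 mock libraries and 4.98, 4.90 and 5.04% in the MA9 sPrdm16 libraries, and the range with sPrdm16 lay inside the range of mock. In WT cells it was 3.30, 3.78 and 3.75% with mock and 4.02, 4.46 and 4.78% with sPrdm16. Every WT sPrdm16 library stood above every WT mock library, with means of 4.42% ± 0.384 and 3.61% ± 0.268 (SD, n = 3 each). MA9 mock averaged 5.14% ± 0.480 and MA9 sPrdm16 4.98% ± 0.0709. These shares are given as values with no test, and MA9 is not compared with WT by a test because each genotype came in its own table. As a share of all counts the MA9 mean was 1.42% in mock and 3.76% with sPrdm16.

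**Figure D1:**
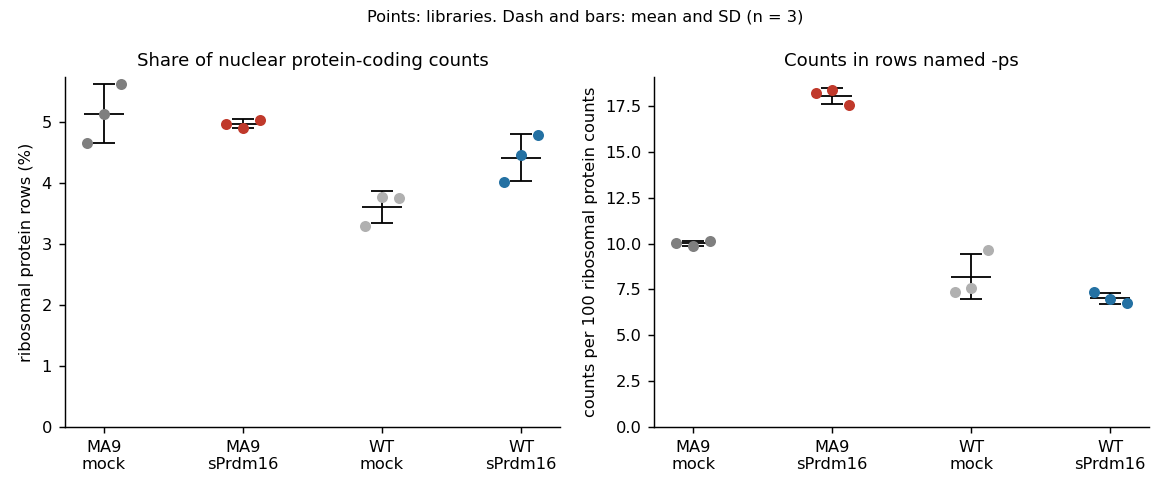
Left, the share of nuclear protein-coding counts in the 87 ribosomal protein rows (%), and right, the counts in their rows named -ps per 100 counts in the genes, by library (points), with the mean and SD of 3 libraries (dash and bars). The WT sPrdm16 libraries lie above the WT mock libraries on the left (means 4.42% and 3.61%), and MA9 sPrdm16 stands apart on the right (lowest library 17.5, against a mean of 10.0 in MA9 mock).

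Although ribosomes hold most of these proteins in equal number, the mRNA levels per kb of coding sequence spread widely. Among the 77 core genes in WT mock the median was 643 CPM per coding kb, and the range ran from 131 for Rpl5 to 5629.6 for Rpl41, on the scale of all 12 libraries. The 90th percentile was 4.45 times the 10th. Counts also cover bases outside the coding sequence, so this measure is raised where that sequence is a small part of the transcript. Coding length was that of the longest coding sequence annotated for a gene. The measure is lowered where the form mainly made is shorter. The order by transcript length was not computed. By this measure Rpl41, which encodes the smallest ribosomal protein, led in every group. Its longest annotated coding sequence has 141 bases. Rpl41 stood at 3674 ± 238 CPM per coding kb for MA9 mock and 3631 ± 169 for MA9 sPrdm16, and at 5629.6 ± 819 and 4851 ± 402 for the WT groups in the same order (SD, n = 3). Rplp2 and Rplp1, the stalk proteins that contact elongation factors, followed by the mean over all libraries. Rplp2 stood at 3140.0 ± 467 CPM per coding kb in MA9 mock and at 909 ± 172 in WT mock (SD, n = 3), whereas Rplp1 stood at 1633 ± 126 and 1607 ± 191, within each other's spread. The 3 lowest core genes by the same mean were Rpl10a, Rpl12 and Rpl7a, but the lowest gene differed by group, being Rps27 in MA9 mock (163 ± 21.7 CPM per coding kb), Rps13 in MA9 sPrdm16 (165 ± 5.45) and Rpl5 in both WT groups (131 ± 18.02 and 183 ± 26.5, SD, n = 3). Rpl7a stood between 185 and 229 CPM per coding kb in the 4 groups. The levels of Rpl10a and Rpl7a are uncertain: the coding sequence of Rpl10a is identical to that of a row named Rpl10a-ps1, and the -ps rows of Rpl7a held 48.4 counts per 100 of the gene in MA9 mock and 90.1 in MA9 sPrdm16. The place of Rps13 as lowest in MA9 sPrdm16 is uncertain too. There its near-identical row Rps13-ps1 held 3147, 4147 and 2605 counts, against 2600, 3500 and 2211 for the gene. In MA9 mock Rps27 had 532, 522 and 335 counts, and its paralog Rps27rt, also of 255 coding bases, had 294, 402 and 394. Their sequences were not compared, so the place of Rps27 as lowest in MA9 mock is uncertain as well. By total level the most abundant core genes were Rpsa, Rpl4 and Rps3, with means of 791 ± 52.1, 773 ± 60.1 and 643 ± 55.2 CPM in WT mock and 1333 ± 181, 912 ± 78.7 and 1842 ± 493 CPM in MA9 mock (SD, n = 3).

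The mock groups of the genotypes differed in the order of the genes. Of the 77 core genes, 19 had all MA9 mock libraries above all WT mock libraries, 30 had them all below and 28 overlapped, with a median ratio of 0.861 on the scale of all 12 libraries. The shares of all genes that split in this way were not computed, so the counts are not read as a trait of the family. Some of the widest ratios, chosen after their values were seen, were those of Rpl5 (549 ± 55.6 against 117 ± 16.1 CPM), Rplp2 (1093 ± 163 against 316 ± 59.8 CPM), Rpl13 (224 ± 7.28 against 865 ± 112 CPM) and Rps18 (174 ± 15.6 against 596 ± 71.2 CPM, SD, n = 3 each). Rpl5, Rplp2 and Rpl13 hold a snoRNA inside an annotated exon. The family's snoRNA rows held 11.6 counts per 100 ribosomal protein counts in MA9 mock and 0.000168 in WT mock. The part of snoRNA reads in these ratios was not tested. Rpl22, which in mice is known to hold down its paralog Rpl22l1, stood at 309.8 ± 53.2 CPM with MLL::AF9 and 103 ± 18.3 CPM without it in the mock groups, and Rpl22l1 at 22.7 ± 0.920 and 59.0 ± 7.28 CPM. Within MA9 both means were higher with sPrdm16, at 396 CPM for Rpl22, which was not called, and 29.4 CPM for Rpl22l1. A link between these genes was not tested. Genotype and deposited table coincide and cannot be told apart, so none of the differences between the mock groups was tested.

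**Figure D2:**
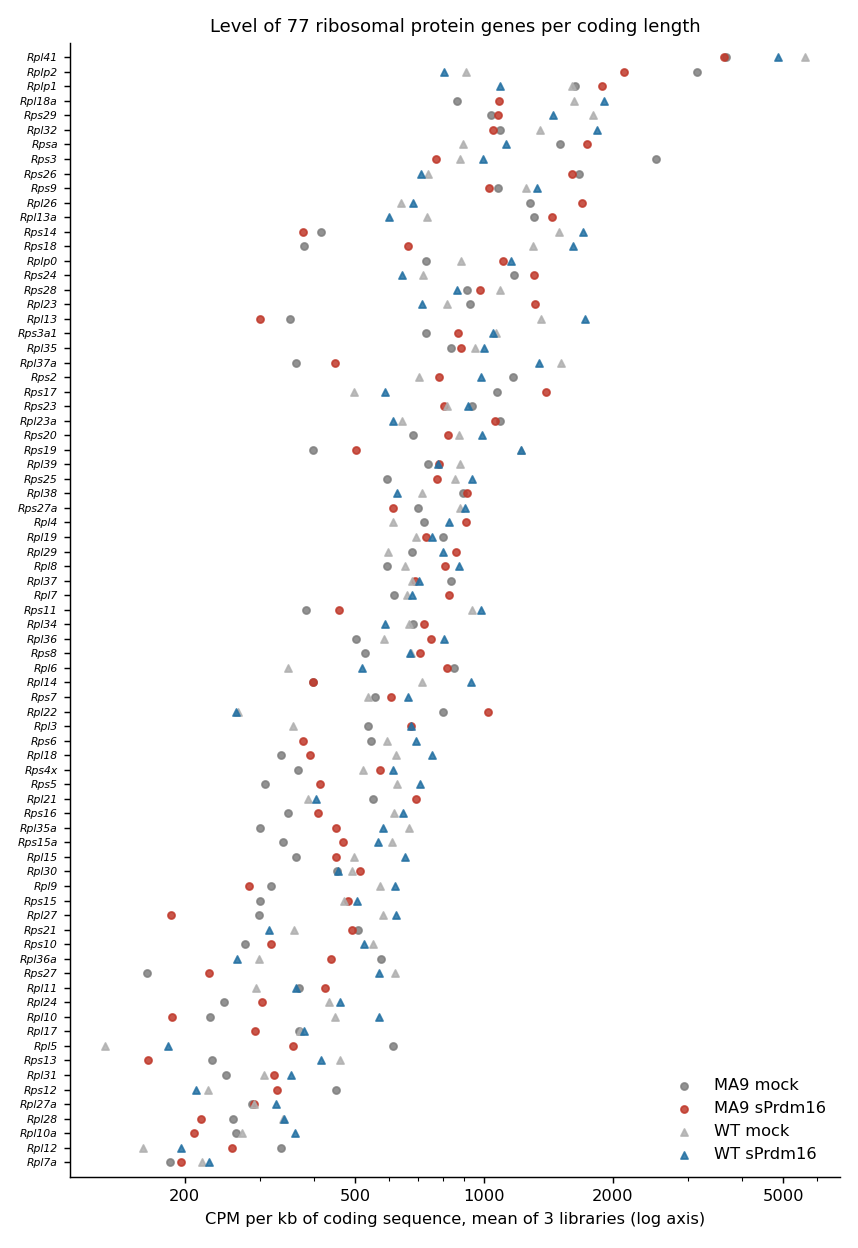
Mean level of the 77 core ribosomal protein genes in CPM per kb of coding sequence (log axis, scale of all 12 libraries, each point the mean of 3 libraries) in the 4 groups, ordered by the mean over all libraries. Rpl41 leads in every group, and Rpl5 is lowest in WT mock at 131 against 614 in MA9 mock.

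In MA9 cells, where the comparison asks what sPrdm16 changed in leukaemic cells, the family did not move one way. Of 83 genes tested 17 rose and 18 fell in MA9 sPrdm16 against MA9 mock (edgeR quasi-likelihood test, Benjamini-Hochberg adjusted over all genes, threshold 0.05). Over all 14394 genes tested 34.6% were called, 17% higher and 17.5% lower, so the family's share of calls was close to that background. The median log2 fold change was 0.07 over the 83 genes and 0.03 over all genes. The groups did not overlap for 22 genes with sPrdm16 higher and 20 with sPrdm16 lower, against 26.7% and 23.4% of all genes. The counts rested on single libraries: 34 genes rose without MA9 mock replicate 3, 10 without MA9 mock replicate 2 or MA9 sPrdm16 replicate 1 and 11 without MA9 sPrdm16 replicate 3, and 31 fell without MA9 mock replicate 1. Scaled by total counts alone, where the median over all genes was 1.43, 81 rose and 0 fell, so each direction given here is relative to the TMM scale. Structural RNAs, given above, also differed between these groups, and their part in the changes was not tested. Levels in the following are CPM on the scale of the MA9 libraries. The labels do not say whether the replicates are separate cultures or animals, and the p-values then reflect only the spread of these libraries, which may be technical.

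Among small subunit genes 8 of 31 rose and 7 fell in MA9. Rps18, part of the head of the small subunit, had the largest rise of the family, from 130.4, 145 and 160.1 CPM in the MA9 mock libraries to 236, 242 and 239 CPM with sPrdm16 (log2 fold change 0.72, SE 0.08, edgeR adjusted p = 0.00012). All 3 sPrdm16 libraries stood above all 3 mock libraries, and the sPrdm16 libraries lay close together. Rps15, also in the head, had 95.0, 109 and 124 CPM in the MA9 mock libraries and 169, 167 and 157 CPM with sPrdm16 (log2 fold change 0.59, SE 0.09, edgeR adjusted p = 0.0010). For Rps4x, the X-linked gene of its protein, the values were 226, 261 and 240.0 CPM in the MA9 mock libraries and 362, 349.7 and 347 CPM with sPrdm16 (log2 fold change 0.54, SE 0.06, edgeR adjusted p = 0.00023). Neither gene's groups overlapped. Rps15a rose by 0.37 and Rps27, a protein with a zinc finger, by 0.40 on the log2 scale (edgeR adjusted p = 0.00092 and 0.019). The call for Rps27 was lost when MA9 mock replicate 2 was left out (adjusted p = 0.087), and likewise without MA9 sPrdm16 replicate 1 (0.088) or 3 (0.064). Counts of its paralog Rps27rt, given above, were not added to those of Rps27 in any fit, including the interaction.

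Of 43 large subunit genes 7 rose and 10 fell in MA9, and of the 3 stalk genes 1 rose and 1 fell. The stalk base Rplp0, which anchors Rplp1 and Rplp2, rose with 466, 592 and 691 CPM in the MA9 mock libraries and 841, 807 and 831 CPM with sPrdm16 (log2 fold change 0.50, SE 0.12, edgeR adjusted p = 0.0096). Its groups did not overlap, though mock replicate 1 was well below the other mock libraries, and without mock replicate 2 the adjusted p was 0.052. Rpl35a, mutated in some patients with Diamond-Blackfan anaemia, had 76.0, 77.5 and 96.5 CPM in the MA9 mock libraries and 118, 115 and 119 CPM with sPrdm16 (log2 fold change 0.50, SE 0.09, edgeR adjusted p = 0.0025). Rpl23, which can bind the p53 regulator Mdm2, had 309, 315 and 357 CPM in the MA9 mock libraries and 436, 443 and 428 CPM with sPrdm16 (log2 fold change 0.42, SE 0.07, edgeR adjusted p = 0.0011). In both genes each sPrdm16 library exceeded each mock library. Rpl3 and Rpl4, which reach into the core of the large subunit, rose by 0.24 and 0.23 on the log2 scale (edgeR adjusted p = 0.031 and 0.034), and neither stayed past the threshold without mock replicate 2 (0.10 and 0.097) or without any 1 of the sPrdm16 libraries, nor with RLE size factors (0.055 and 0.061; left-out libraries 0.072 to 0.12).

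Rps3, a small subunit protein at the channel where mRNA enters, had the largest change of the family in MA9 and fell. Its levels were 1270.4, 1304 and 2045 CPM in the MA9 mock libraries and 440.0, 452 and 433 CPM with sPrdm16 (log2 fold change -1.80, SE 0.18, edgeR adjusted p = 0.00028). All mock libraries were far above the sPrdm16 libraries, and mock replicate 3 was the highest by a wide margin. Rps3 (ENSMUSG00000030744.13, chromosome 7, positions 99477896 to 99483738, mm10) holds 2 snoRNAs in the annotation, Snord15a in an intron and Snord15b inside an annotated exon. The row of Snord15b had 15104, 14197 and 12876 counts in MA9 mock and 4226, 5390 and 2589 in MA9 sPrdm16, and 0 in every WT library. Exons were taken from every annotated transcript of a gene, coding or not, so such an exon need not be part of the mRNA. Strand was not recorded in the sources used here, and a snoRNA and the exon it overlaps share their bases. Over these bases, reads of the snoRNA and of other Rps3 transcripts cannot be told apart in the Rps3 row.

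Such overlap was common among the genes that fell. Across the family 30 genes hold 58 snoRNA rows, and in 22 genes a snoRNA lies inside an exon of some annotated transcript, coding or not. Of these 22, 9 fell and 2 rose in MA9, with a median log2 fold change of -0.11, while of the 53 tested genes with no snoRNA 8 fell and 14 rose, with a median of 0.11. Of the 8 genes with snoRNAs in introns only 1 fell and 1 rose, with a median of 0.06. Over all genes tested 17.5% fell and 17% rose. The snoRNA rows together held 37050.0, 33904 and 33063 counts in the MA9 mock libraries and 11082, 14392 and 6794 in MA9 sPrdm16, against 0 to 5 in the WT libraries. That was 11.6 ± 3.29 and 0.994 ± 0.178 per 100 ribosomal protein counts in the MA9 groups (SD, n = 3). The part of snoRNA reads in the falls was not tested.

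The snoRNAs that lie in exons of the genes that fell most are printed from the annotation's genome positions in mm10, with box C (TGATGA) and box D (CTGA) of the Snord class and the ACA box of the Snora class in capitals where a search for those letters found them.
Snord15b in Rps3 (chr7:99479563-99479707, minus strand): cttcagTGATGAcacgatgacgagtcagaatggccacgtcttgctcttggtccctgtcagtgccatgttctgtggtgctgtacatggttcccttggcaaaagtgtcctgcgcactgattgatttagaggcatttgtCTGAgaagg
Snord21 in Rpl5 (chr5:107904555-107904648, plus strand): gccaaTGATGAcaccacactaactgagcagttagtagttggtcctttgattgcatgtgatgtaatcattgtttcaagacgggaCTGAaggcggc
Snora64 in Rps2 (chr17:24720772-24720905, plus strand): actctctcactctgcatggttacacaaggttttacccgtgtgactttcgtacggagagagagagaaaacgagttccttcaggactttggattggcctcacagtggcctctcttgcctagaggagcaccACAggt
Snora52 in Rplp2 (chr7:141448803-141448939, plus strand): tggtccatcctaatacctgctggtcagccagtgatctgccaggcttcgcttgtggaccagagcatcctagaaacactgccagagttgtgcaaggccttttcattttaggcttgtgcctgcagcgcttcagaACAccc
Snora64 in Rps2 had 1856, 2066 and 2836 counts in MA9 mock and 0, 125 and 0 in MA9 sPrdm16. Snord21 in Rpl5 was listed at 0 in all 12 libraries, and Snora52 in Rplp2 at 0 in all but 1, while both host genes fell in MA9. Whether reads over those bases were given to the host row was not tested.

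The other hosts of these snoRNAs fell as well. Rpl5, which with Rpl11 carries ribosomal RNA to the ribosome and can bind Mdm2, had 506, 421 and 444 CPM in the MA9 mock libraries and 259, 253 and 240.1 CPM with sPrdm16 (log2 fold change -0.87, SE 0.07, edgeR adjusted p = 4.6e-05). Rps2, beside the mRNA entry channel, had 1082, 861 and 712 CPM in the MA9 mock libraries and 563, 537 and 578 CPM with sPrdm16 (log2 fold change -0.66, SE 0.13, edgeR adjusted p = 0.0037). For Rplp2 of the stalk the levels were 1052, 868 and 811 CPM in the MA9 mock libraries and 559, 557 and 613 CPM with sPrdm16 (log2 fold change -0.66, SE 0.09, edgeR adjusted p = 0.00067). The call of Rps2 ended with no filter on low counts (adjusted p = 0.093). In all 3 genes the groups did not overlap, and mock replicate 1 was the highest library, where Rps3 had its highest value in mock replicate 3.

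**Figure D3:**
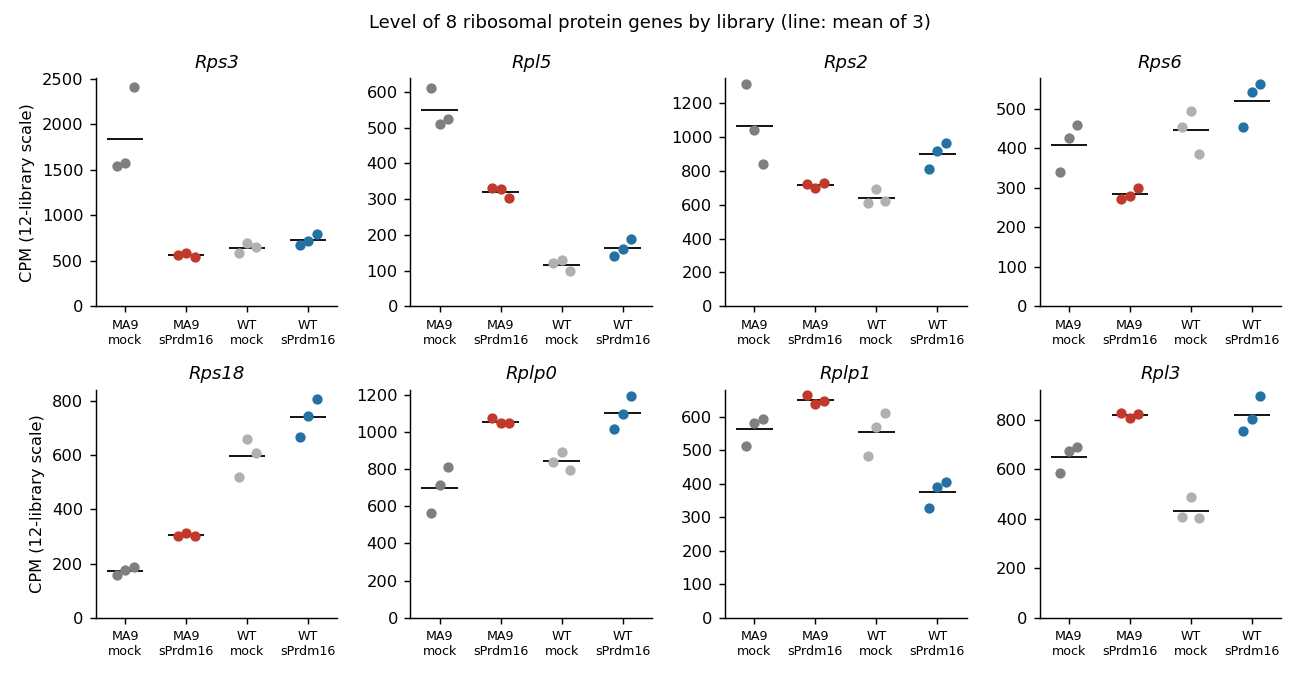
Level of 8 ribosomal protein genes in each of the 12 libraries, in CPM on the scale of all 12 libraries (points, with the mean of 3 as a line). Rps3, Rpl5, Rps2 and Rps6 are lower in MA9 sPrdm16 than in MA9 mock with no overlap, Rps18 and Rplp0 are higher, Rplp1 is lower in WT sPrdm16 than in WT mock and Rpl3 higher.

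Other genes that fell in MA9 have a near-identical copy elsewhere in the genome that holds counts of its own. The tables have 317 rows named -ps for 62 of the family's genes. Of the 60 genes whose most counted copy could be aligned, 10 matched it at every base of the aligned coding sequence and 30 at 99% or more. Rps6, the small subunit protein that S6 kinases phosphorylate, had 281, 351 and 389 CPM in the MA9 mock libraries and 212, 216 and 236 CPM with sPrdm16 (log2 fold change -0.62, SE 0.11, edgeR adjusted p = 0.0020). Over the same libraries the unscaled counts of the row Rps6-ps4 went from 4915, 4583 and 2547 to 21268, 31018 and 17915, at 0.74 on the log2 scale (SE 0.06, edgeR adjusted p = 2.6e-05). The gene fell with no overlap between groups while its copy rose. The 750 coding bases of Rps6 and Rps6-ps4 are identical, as are the 414 of Rpl28 and Rpl28-ps1, so reads within them have no base that tells one row from the other. The first 60 coding bases of both pairs, and 48 bases of 2 pairs that differ, with the differing bases in capitals, are printed from GENCODE M21 to show how little separates such rows.
Rps6: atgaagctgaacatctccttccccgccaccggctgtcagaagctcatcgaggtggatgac
Rps6-ps4: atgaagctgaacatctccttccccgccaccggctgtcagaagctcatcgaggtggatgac
Rpl28: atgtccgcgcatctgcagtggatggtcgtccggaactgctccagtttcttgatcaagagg
Rpl28-ps1: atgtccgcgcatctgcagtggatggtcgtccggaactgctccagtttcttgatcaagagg
Rps13: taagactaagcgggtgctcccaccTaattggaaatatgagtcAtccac
Rps13-ps1: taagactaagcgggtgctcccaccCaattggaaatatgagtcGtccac
Rps27a: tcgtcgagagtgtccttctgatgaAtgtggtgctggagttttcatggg
Rps27a-ps2: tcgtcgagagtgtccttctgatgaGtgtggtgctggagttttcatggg
Rps13 and its copy differed at 2 of 456 coding bases, and Rps27a at 1 of the 467 aligned.

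Most of the highly counted copies rose in MA9. Of the 317 -ps rows 34 had over 3000 counts in all libraries together. Of these 34, 31 rose and 0 fell in the edgeR test, with a median log2 fold change of 0.98. Over all genes tested 17% rose and 17.5% fell. The floor was set on unscaled counts, so a row could pass it through high counts in MA9 sPrdm16. The 31 rises are therefore not read as a trait of all copies. Per 100 counts in the genes, the -ps rows held 10.0, 9.87 and 10.2 in the MA9 mock libraries and 18.2, 18.3 and 17.5 with sPrdm16. The WT groups stood at 8.20 ± 1.24 and 7.03 ± 0.297 (SD, n = 3). When the counts of each gene's -ps rows were added to the gene, 24 genes rose and 7 fell in MA9. All 17 rises of the rows as deposited remained and 4 genes joined them (Rpl31, Rpl7a, Rps10 and Rps16).

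Of the 18 falls, 7 remained with the copies added, namely Rps3, Rpl5, Rps2, Rplp2, Rpl12, Rpl13 and Rps14, of which all but Rps14 hold a snoRNA inside an exon. The calls of 8 ended, namely Rpl27, Rps6, Rps13, Rps12, Rpl36a, Rpl17, Rps27a and Rpl9. Rpl10, a late-joining protein near the site of peptide bond formation, had 132, 120.1 and 118 CPM in the MA9 mock libraries and 94.7, 92.5 and 95.1 CPM with sPrdm16 as deposited (log2 fold change -0.39, SE 0.06, edgeR adjusted p = 0.0014) and with the copies added turned to 0.53 (SE 0.06, edgeR adjusted p = 0.00025). Rpl28 turned from -0.34 to 0.51 (SE 0.07, edgeR adjusted p = 0.00077) and Rpl10a from -0.42 to 0.22 (SE 0.06, edgeR adjusted p = 0.021). Rpl27, with 90.8, 103 and 113 CPM in the MA9 mock libraries and 57.0, 58.1 and 63.8 CPM with sPrdm16 as deposited (log2 fold change -0.77, SE 0.09, edgeR adjusted p = 0.00020), had no call with the copies added, at 0.14 (SE 0.08, edgeR adjusted p = 0.23). In the MA9 sPrdm16 libraries the copies of Rpl27 held on average 201 counts per 100 of the gene, and in MA9 mock 59.9. Levels and directions of these 11 genes are therefore uncertain. Rps14, whose loss of 1 copy underlies the anaemia of a human chromosome deletion syndrome, had no counts in -ps rows and holds no snoRNA. Copies without -ps in their name were not searched. Its values were 157, 149 and 168 CPM in the MA9 mock libraries and 128, 131 and 146 CPM with sPrdm16 (log2 fold change -0.23, SE 0.07, edgeR adjusted p = 0.039). The groups did not overlap but came close, at 149 and 146 CPM. How this call fared with libraries left out or other scaling is not given here.

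**Figure D4:**
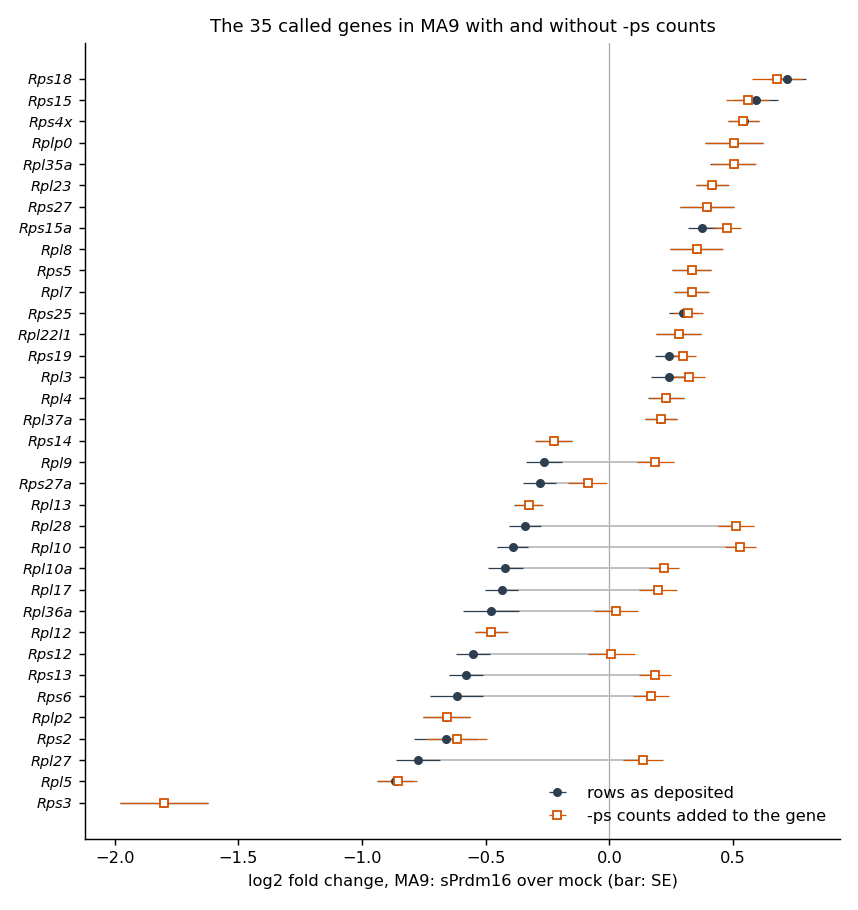
Log2 fold change in MA9 (sPrdm16 over mock, with SE) of the 35 called genes for the rows as deposited (filled circles) and with the counts of their -ps rows added (open squares). The rises move by little, whereas Rpl10, Rpl10a and Rpl28 cross from falls to rises and Rps3, Rpl5, Rps2 and Rplp2 stay low.

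In normal bone marrow cells sPrdm16 was accompanied mainly by rises, most of them in the large subunit. Of 84 genes tested 20 rose and 3 fell in WT sPrdm16 against WT mock (edgeR, Benjamini-Hochberg adjusted over all genes), while over 14063 genes 34.1% were called, 17.5% higher and 16.6% lower. The median was 0.06 over the family and 0.01 over all genes on the log2 scale. By role 15 of 43 large subunit genes rose and 1 fell, and of 31 small subunit genes 4 rose and 0 fell. The groups did not overlap for 21 genes with sPrdm16 higher and 4 lower, against 23.8% and 22.8% of all genes. Scaled by total counts, 41 rose and 1 fell. Falls numbered 12 without WT mock replicate 1 and 1 without WT mock replicate 2 or 3 or WT sPrdm16 replicate 1 or 2. Leaving out WT sPrdm16 replicate 2 or 3 took the rises to 14 and 12. Levels here are CPM on the scale of the WT libraries.

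Rpl3 had the largest rise, with 509.6, 604 and 502 CPM in the WT mock libraries and 936, 993 and 1108 CPM with sPrdm16 (log2 fold change 0.91, SE 0.10, edgeR adjusted p = 5.1e-06). Each sPrdm16 library held well above every mock library. Rpl6, a large subunit protein, had 371, 411 and 378 CPM in the WT mock libraries and 516, 559.8 and 639 CPM with sPrdm16 (log2 fold change 0.56, SE 0.09, edgeR adjusted p = 0.00030). Rpl5, which fell in MA9, had 150.1, 162 and 123 CPM in the WT mock libraries and 176, 198 and 234 CPM with sPrdm16 (log2 fold change 0.48, SE 0.12, edgeR adjusted p = 0.0066). The groups of both genes were separate. Rps2 led the small subunit rises, with 761, 858 and 768 CPM in the WT mock libraries and 1004, 1131 and 1186 CPM with sPrdm16 (log2 fold change 0.48, SE 0.09, edgeR adjusted p = 0.00076). Rpl36, Rpl32, Rpl4 and Rpl29, all of the large subunit, rose by 0.45, 0.43, 0.42 and 0.42 on the log2 scale with edgeR adjusted p between 0.0012 and 0.0069, and in each the groups did not overlap. In 1 fit over all 12 libraries Rpl36 and Rpl29 were not called (adjusted p = 0.069 and 0.19). Of the 20 genes that rose in WT, 18 still rose with the -ps counts added, and Rpl10 and Rps7 did not pass. The WT calls of Rpl10 and Rps18 were each lost without any of 3 libraries, up to adjusted p = 0.13 and 0.13 without WT sPrdm16 replicate 3, as was that of Rpsa without the same library (0.066).

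Falls in WT were few. Rplp1 of the stalk had 602, 706 and 760.1 CPM in the WT mock libraries and 406, 483 and 500.2 CPM with sPrdm16 (log2 fold change -0.57, SE 0.10, edgeR adjusted p = 0.00060), and its groups were separate. Rpl13a, known in humans for leaving the ribosome to silence inflammatory mRNAs, had 478, 600.1 and 599.9 CPM in the WT mock libraries and 414, 452 and 493 CPM with sPrdm16 (log2 fold change -0.30, SE 0.10, edgeR adjusted p = 0.032), with mock replicate 1 inside the range of the sPrdm16 libraries. Rpl36al, a paralog of Rpl36a, had 335, 378 and 364 CPM in the WT mock libraries and 268, 303 and 328 CPM with sPrdm16 (log2 fold change -0.26, SE 0.09, edgeR adjusted p = 0.041). The calls of Rpl13a and Rpl36al did not hold without WT mock replicate 2 (adjusted p = 0.12 and 0.13) or 3 (0.087 and 0.065), nor without WT sPrdm16 replicate 1 (0.13 and 0.16) or 2 (0.10 and 0.11).

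The genotypes share no library, so their calls can be set side by side. Rpl3, Rpl4, Rpl8, Rplp0 and Rps18 rose in both, which is 5 of the 17 MA9 rises and 5 of the 20 WT rises. Rpl5, Rps2, Rpl10, Rpl10a and Rpl13 fell in MA9 and rose in WT for the rows as deposited. With the -ps counts added Rpl5, Rps2 and Rpl13 still did, whereas Rpl10a rose in both (0.22 and 0.32) and Rpl10 rose in MA9 (0.53) with no call in WT (0.07). No gene fell in both and none rose in MA9 and fell in WT by the calls on the rows as deposited. Over all genes tested 17% rose and 17.5% fell in MA9, and 17.5% rose and 16.6% fell in WT. How many of all genes were called in both genotypes was not counted, so these overlaps are not read as a trait of the family.

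**Figure D5:**
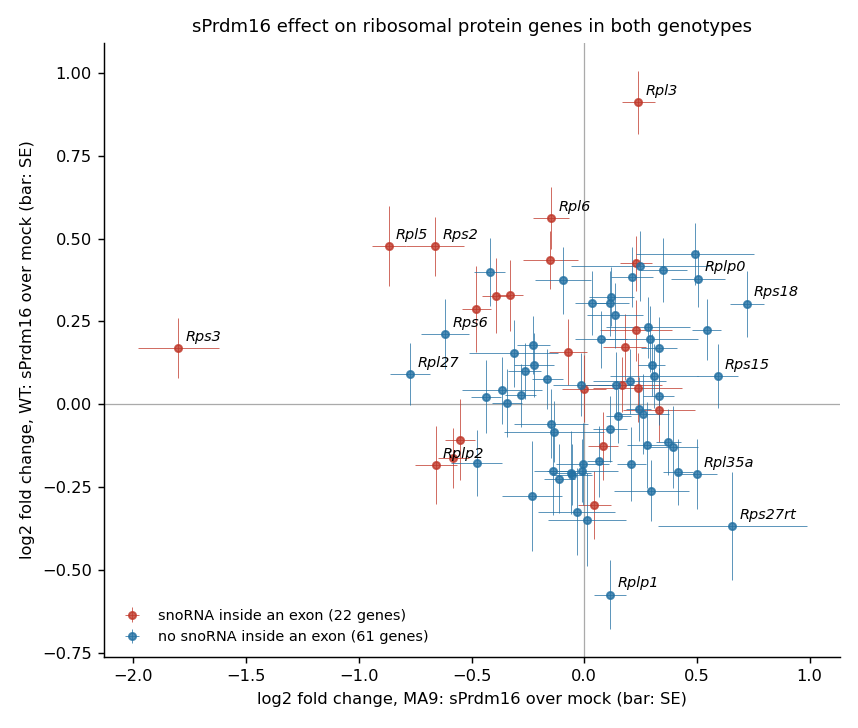
Log2 fold change of sPrdm16 over mock in MA9 (horizontal) and in WT (vertical) for the 83 ribosomal protein genes tested in both, with SE bars, coloured by whether a snoRNA lies inside an annotated exon. Rps3 lies farthest left at -1.80 and Rpl3 highest at 0.91, and Rpl5 and Rps2 are low in MA9 and high in WT.

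Whether the effect of sPrdm16 differed between MA9 and WT cells was tested by an interaction term in 1 model of the 12 libraries. It differed in 26 of 84 genes, 13 with the MA9 effect above the WT effect and 13 below, while over 16194 genes 28% were called, 16% above and 12% below. The median difference was 0.09 over the family and 0.08 over all genes on the log2 scale. The split was 9 above and 15 below with RLE size factors, 71 and 1 with total counts and 7 and 20 in thinned libraries, and 20 lay above without WT mock replicate 1. Of the 22 genes with a snoRNA inside an exon 10 were below and 1 above, and of the 54 tested genes with no snoRNA 3 were below and 11 above. Of the 8 with snoRNAs in introns only 0 were below and 1 above. The lowest differences were those of Rps3 (difference -1.88, SE 0.19, edgeR adjusted p = 1.0e-06), Rpl5 (difference -1.26, SE 0.16, edgeR adjusted p = 1.5e-05) and Rps2 (difference -1.06, SE 0.17, edgeR adjusted p = 0.00015). In WT Rps3 had 731, 863 and 805 CPM in the WT mock libraries and 832, 886 and 979 CPM with sPrdm16, with no call (log2 fold change 0.17, SE 0.09, edgeR adjusted p = 0.17). Its WT groups overlapped, unlike its MA9 groups.

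Differences on the other side came mostly from genes without an in-exon snoRNA. Rpl35a had the highest called one (difference 0.79, SE 0.15, edgeR adjusted p = 0.00071), with 0.50 in MA9 and -0.21 in WT, the latter not called. Rplp1 followed (difference 0.77, SE 0.14, edgeR adjusted p = 0.00049), as it fell in WT while in MA9 it had 425, 480.3 and 505 CPM in the MA9 mock libraries and 519.9, 492 and 513 CPM with sPrdm16, overlapping groups and no call (log2 fold change 0.11, SE 0.07, edgeR adjusted p = 0.24). Rpl23 (difference 0.70, SE 0.13, edgeR adjusted p = 0.00074), Rps27 (difference 0.61, SE 0.18, edgeR adjusted p = 0.016), Rps15 (difference 0.59, SE 0.14, edgeR adjusted p = 0.0046) and Rps15a (difference 0.57, SE 0.13, edgeR adjusted p = 0.0030) rose in MA9 and had WT values of -0.20, -0.13, 0.09 and -0.11 with no call. Rps18 rose in both genotypes, more in MA9 (difference 0.50, SE 0.14, edgeR adjusted p = 0.012), a call that ended in thinned libraries (adjusted p = 0.055). With the -ps counts added all 13 genes above kept their call, while of the 13 below 8 remained (Rpl12, Rpl13, Rpl3, Rpl32, Rpl5, Rpl6, Rps2 and Rps3), all 8 with a snoRNA inside an exon. Rpl10a, Rpl27 and Rps6 lost the call and Rpl10 and Rps13 turned to the other side. A mean Rpsa level of 791 ± 52.1 CPM in WT mock and 998 ± 94.9 CPM in WT sPrdm16 on the 12-library scale went with a WT rise (log2 fold change 0.32, SE 0.09, edgeR adjusted p = 0.011), and in MA9 this laminin-receptor protein of the small subunit was not called (log2 fold change 0.12, SE 0.10, edgeR adjusted p = 0.39).

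The stalk genes thus went separate ways. Rplp0 rose in both genotypes, by 0.50 in MA9 and 0.38 in WT. Rplp1 fell in WT alone by these calls, a difference the interaction test also called. Rplp2 fell in MA9 by 0.66 on the log2 scale and in WT had -0.18 with no call, but the difference between genotypes was not called (adjusted p = 0.11). The stalk genes together held 9.46, 8.35 and 7.63% of the family's counts in the MA9 mock libraries and 6.03, 5.87 and 6.11% in the WT mock libraries.

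The 10 paralogs and other names were a minor part of the counts, 1.18 ± 0.115% of the family in MA9 mock and 2.77 ± 0.137% in WT mock (SD, n = 3). Rpl10l, the retrogene of Rpl10 known from the testis, was at 0 counts in all 12 libraries. Rpl39l, another testis paralog, was at 0 in all 6 MA9 libraries and had mean levels of 0.357 ± 0.307 and 0.460 ± 0.340 CPM in the WT groups on the 12-library scale. Rpl3l, the muscle form of Rpl3, had 1.54, 2.69 and 2.51 CPM in WT mock and 1.19, 0.817 and 0.942 CPM in WT sPrdm16, lower in every library but not called (adjusted p = 0.11). Rpl22l1 rose in MA9, with 18.6, 19.6 and 18.6 CPM in the MA9 mock libraries and 22.5, 23.5 and 23.0 CPM with sPrdm16 (log2 fold change 0.28, SE 0.09, edgeR adjusted p = 0.040). Its call ended without MA9 mock replicate 1 (adjusted p = 0.063) and without any 1 of the MA9 sPrdm16 libraries (0.11 to 0.16). Rps27l, a p53-responsive paralog of Rps27, had 36.3 ± 2.70 CPM (MA9 mock) and 229.9 ± 23.3 CPM (WT mock) on the 12-library scale and was not called in either genotype. Rpl7l1, Rps27rt and Rps19bp1, the last of which encodes an S19-binding protein and no ribosomal protein, were not called either, and Rps23rg1 stayed below 1 CPM.

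Of 9 chaperones and import factors for ribosomal proteins 8 rose and 0 fell in WT, with a median log2 fold change of 0.69, where 17.5% of all genes rose and 16.6% fell (edgeR, adjusted over all genes). In MA9 1 rose and 4 fell, with a median of -0.27, where 17% of all genes rose and 17.5% fell. Grwd1, Rrs1 and Heatr3 were called in opposite directions, and Ipo5 rose in both. The effect was lower in MA9 than in WT for 7 of the 9 in the interaction test, which called 12% of all genes on that side. The neutrophil, mast cell and progenitor markers given above moved between the same WT groups, and their part in these rises was not tested. Grwd1, the chaperone of Rpl3, rose in WT by 1.33 (SE 0.14, adjusted p = 6.1e-06) and fell in MA9, at -0.46 (SE 0.14, adjusted p = 0.030). Tsr2, the chaperone of Rps26, had 0.90 (SE 0.21, adjusted p = 0.0042) in WT and -0.36 (SE 0.14, adjusted p = 0.067) in MA9, where it was not called. Rrs1, which helps to place Rpl5 and Rpl11, had 0.59 (SE 0.10, adjusted p = 0.00025) and -0.38 (SE 0.07, adjusted p = 0.0030), a rise in WT and a fall in MA9. Heatr3, which imports Rpl5, likewise had 0.62 (SE 0.19, adjusted p = 0.020) and -0.27 (SE 0.08, adjusted p = 0.033). The importins Ipo5, Ipo7 and Ipo9 rose in WT by 0.71, 0.69 and 0.79, and in MA9 the value of Ipo5 was 0.20.

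The counts of the following lists stand against the same shares over all genes, 17% higher and 17.5% lower in MA9 and 17.5% and 16.6% in WT. Of 6 elongation factor genes 2 rose in MA9 and 3 in WT with 0 falls, among them Eef2, which moves the ribosome along the mRNA, with 0.41 (SE 0.05, adjusted p = 0.00047) in MA9 and 0.38 (SE 0.09, adjusted p = 0.0031) in WT, and Eef1a1, which delivers aminoacyl-tRNA, with 0.32 (SE 0.08, adjusted p = 0.013) and 0.24 (SE 0.08, adjusted p = 0.022). Of 13 other mRNAs known to carry a TOP motif 4 rose and 4 fell in MA9 and 3 rose and 2 fell in WT. Npm1, a chaperone of the nucleolus, fell in MA9, at -0.49 (SE 0.05, adjusted p = 0.00012), and rose in WT, by 0.49 (SE 0.08, adjusted p = 0.00039). Impdh2, an enzyme of guanine nucleotide synthesis, rose in both, by 0.30 (SE 0.08, adjusted p = 0.016) and 1.77 (SE 0.11, adjusted p = 2.1e-08). Among 15 regulators of TOP mRNAs and mTORC1 2 rose and 1 fell in MA9 and 5 rose and 2 fell in WT. Larp1, which binds the TOP motif, rose in WT by 0.65 (SE 0.08, adjusted p = 2.7e-05) and had -0.13 (SE 0.06, adjusted p = 0.10) in MA9 with no call, a difference the interaction called. Eif4ebp1, a repressor of cap-dependent translation, rose in both, by 0.69 (SE 0.09, adjusted p = 0.00054) and 0.25 (SE 0.09, adjusted p = 0.045). Of the ribosomal proteins outside the name rule Rack1 rose and Fau fell in MA9 (0.33 and -0.24).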

How the data were processed

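Per the labels, RNeasy gave total RNA and Nextera XT the libraries. The sources used here give neither the cDNA method nor any ribosomal RNA depletion or strand setting. The authors deposited 1 table per genotype whose values are expected counts (estimated counts of reads per gene, unscaled). DRAGEN and the build mm10 are named, without a version, per the submitters' processing notes. Between 5.19% and 10.2% of the values per library were not whole, and all were rounded. The deposited gene length column was checked only as an annotation and used in no result. The rows follow GENCODE M21: 54349 of 55487 identifiers had the same coordinates there, as did all 87 ribosomal protein genes, and coding lengths, exons and snoRNA positions were taken from it.

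The test was that of edgeR 4.0.16 (R 4.3.3, TMM scaling, default filter with a minimum count of 10, robust quasi-likelihood F test), for MA9 and for WT on their own 6 libraries and for the interaction on all 12. P-values were adjusted by Benjamini and Hochberg over all genes, with a threshold of 0.05. A gene is said to rise or fall where it passed. SE was derived from the F statistic, and CPM are library-size-scaled counts on the TMM scale of the named libraries. The scripts were tested on simulated data whose spread was a fixed value, not that of these libraries. Of simulated log2 changes of 0.5 they recovered 13.3% in MA9, 17% in WT and 4% in the interaction. Of changes of 1 they recovered 83.7%, 81.6% and 46.9% in the same order. A gene with no call is therefore not shown to be unchanged.

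Members, lists and alternatives were chosen with earlier results of these data known. The text names, per comparison, the 8 largest rises and falls among called genes, the stalk genes and Rpsa, paralogs with counts, the 3 most abundant genes, the 3 highest and 3 lowest per coding length, and genes of the other lists, of which not every called one is named; Rpl22, Rpl13, Rps14, Rpl28, Rpl8, Rpl10l and genes listed by call were named after their values were seen. Alternatives were RLE scaling, total counts, no filter, 5 CPM in 3 libraries, DESeq2 1.42.0, limma-voom (3.58.1), nuclear protein-coding genes alone, thinned libraries, a replicate block, -ps counts added, 1 fit over all 12 libraries and each library left out. No 2 libraries of a group differed by less than sampling noise (chi-square per gene 3.63 to 138). Counting error alone underlies any statement on counts of 0. Protein sequences were not used here, and for genes and copies on chromosome 18 no sequence is shown.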

Additional observations from a re-analysis of the deposited data

Results flagged for a closer look

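The effect of sPrdm16 differed between MA9 and WT cells, by an interaction test over 12 libraries with edgeR adjusted p under the threshold, in 26 ribosomal protein genes, of which 23 are covered by the rule for named genes and listed here (Rpl13, Rpl7 and Rpl37a are not). On the log2 scale the MA9 effect was below the WT effect by these differences: Rps3 -1.88, Rpl5 -1.26, Rps2 -1.06, Rpl27 -0.78, Rps6 -0.75, Rpl10a -0.74, Rpl12 -0.68, Rpl10 -0.64, Rpl6 -0.63, Rpl3 -0.59, Rpl32 -0.50, Rps13 -0.34. It was above the WT effect by these differences: Rpl35a 0.79, Rplp1 0.77, Rpl23 0.70, Rpl36al 0.64, Rps27 0.61, Rps15 0.59, Rps15a 0.57, Rps18 0.50, Rpl22l1 0.48, Rpl13a 0.43, Rps4x 0.40. Leaving out single libraries ended the call for Rpl13a (in 4 of 12 cases), Rpl22l1 (10 of 12), Rpl32 (8 of 12), Rps13 (9 of 12) and Rps4x (2 of 12). Groups of 3 libraries were not searched for outlying libraries.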

How the results depend on the processing

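Depth was lowest in MA9 mock, where values of low genes are the least precise. With total counts and no scaling factor the log2 median over all genes in MA9 was 1.43 in place of 0.03, and 81 ribosomal protein genes rose and 0 fell in MA9 (81 called), 41 rose and 1 fell in WT (42 called), and 71 lay above and 1 below in the interaction (72 called). Values that changed sign there were, in MA9, Rpl10 1.01, Rpl10a 1.01, Rpl12 0.95, Rpl27 0.67, Rpl32 1.32, Rpl5 0.54, Rpl6 1.30, Rplp2 0.72, Rps12 0.86, Rps13 0.85, Rps2 0.70, Rps6 0.84; in WT, Rpl22l1 0.0501, Rps13 0.0132, Rps15a 0.0589, Rps27 0.0449; and in the interaction, Rpl10 0.51, Rpl10a 0.43, Rpl12 0.49, Rpl27 0.40, Rpl3 0.59, Rpl32 0.71, Rpl6 0.57, Rps13 0.83, Rps2 0.0440, Rps6 0.45. With -ps counts added 7 genes fell in MA9, and 20 lay above and 8 below in the interaction; values that changed sign were, in MA9, Rpl10 0.53, Rpl10a 0.22, Rpl27 0.14, Rps12 0.00789, Rps13 0.18, Rps6 0.17, and in the interaction, Rpl10 0.55, Rpl27 0.21, Rps13 0.51, Rps6 0.11. With no filter 26 genes rose in MA9, 5 fell in WT and 21 lay above in the interaction. Falls in WT were also 5 with the 5 CPM filter, with DESeq2 and with nuclear protein-coding genes alone. Under the 5 CPM filter the MA9 value of Rpl13a was -0.0105. In thinned libraries 7 lay above and 20 below in the interaction. Without each library in turn MA9 had 10 to 34 rises and 15 to 31 falls, WT 12 to 22 rises, 1 to 12 falls and 15 to 28 calls, and the interaction 9 to 20 above; mock replicates 3 (34 rises) and 1 (31 falls) gave the MA9 extremes. Over the same exclusions Rpl13a in MA9 ran from -0.0238 to 0.12, Rpsa in MA9 from -0.00780 to 0.21 and Rps27 in WT from -0.25 to 0.00455. Of the named calls 17 of 22 in MA9, 11 of 16 in WT and 18 of 23 in the interaction held without each library in turn. With all counts as denominator the family's shares were 1.42%, 3.76%, 3.34% and 4.15% in MA9 mock, MA9 sPrdm16, WT mock and WT sPrdm16. Same-numbered libraries did not deviate together (correlations -0.0547 to 0.0491), and not every library correlated best with its own number, so the numbers were not taken to pair samples; a replicate block gave 13 rises and 18 falls in MA9, 23 and 6 in WT, and 14 above and 12 below in the interaction. The cause of these changes was not tested.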
